A study of Mus musculus with 7 samples.

Results

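The data concern 10 genes for receptor tyrosine kinases that bind growth factors, measured in mouse fibroblasts and pluripotent cells. They are the class III receptors Kit, Pdgfra and Pdgfrb, the FGF receptors Fgfr1, Fgfr2 and Fgfr4, the EGF family receptors Egfr and Erbb3, the hepatocyte growth factor receptor Met and the TAM receptor Axl. The genes were chosen by name, each was read by 1 probe set that carries 1 gene symbol, and all 10 were found among the 19938 genes measured. Messenger RNA was measured on 7 Affymetrix arrays, each loaded with 1 culture. Mouse embryonic fibroblasts (MEFs) of the 129/OG2 background, isolated at 13.5 days post coitum, gave 1 array in FBS and 1 in the medium labelled iCD1. Induced pluripotent stem (iPS) lines O4-1, O4-2 and O4-4, which are fibroblasts infected with Oct4 and no other factor named in the labels, gave 1 array each in KSR medium. N2B27 (2i), a serum-free medium whose 2i component blocks the kinases MEK and GSK3, was used for a second culture of line O4-1 and for OG2 embryonic stem (ES) cells, with 1 array each. The labels do not say whether each iPS line is 1 clone, nor whether the lines came from separate fibroblast cultures, so p-values measure only the spread between these lines, which may be technical.

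A receptor tyrosine kinase spans the cell membrane. When its ligand binds outside, receptors pair up, phosphorylate each other inside and recruit adaptors that switch on the RAS-MEK-ERK and PI3-kinase routes. Fibroblasts grow in response to PDGF, FGF and EGF, and Pdgfra is widely used as a mesenchymal marker. In mouse pluripotent cells FGF4 acting through FGF receptors and ERK prepares the exit from the naive state, and Kit, the receptor for stem cell factor, is carried on the surface of ES cells and germ cells.

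Values are log2 expression, on which a difference of 1 is 2-fold, and the array medians lay between 4.97 and 5.03. No detection call is given, so a low value cannot be set apart from background, and probe sets of different genes are not compared in level. The labels were checked against markers. Of 10 pluripotency markers the mean log2 level was 4.10 on each MEF array and between 9.70 and 10.18 on the 5 pluripotent arrays, and Pou5f1 was at 3.40 and 4.04 in MEFs and at 10.61 to 10.99 elsewhere. Pou5f1 encodes Oct4, with which the iPS lines were infected, so its level in them is not an independent check. The mean of 10 fibroblast markers was 8.69 in FBS and 9.74 in iCD1, and 5.87 to 7.06 on the pluripotent arrays, where line O4-4 had the highest. Other label fields go against the titles and growth conditions used here: fibroblasts are named as the ES sample's source, iCD1 in the source of the iPS samples, and every description speaks of iPS cells soon after infection.

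Pdgfra and Kit stand side by side in the RefSeq gene order of assembly GRCm38.p6, on chromosome 5, with 0 protein-coding genes between them, and they differed in opposite directions between the cell types. The 250 bases before the annotated start of each are shown for that reason, 5′ to 3′ on the plus strand, from RefSeq, at chr5:75574737-75574986 for Kit and at chr5:75152001-75152250 for Pdgfra. Capitals mark the GC box GGGCGG, searched on both strands.
Kit: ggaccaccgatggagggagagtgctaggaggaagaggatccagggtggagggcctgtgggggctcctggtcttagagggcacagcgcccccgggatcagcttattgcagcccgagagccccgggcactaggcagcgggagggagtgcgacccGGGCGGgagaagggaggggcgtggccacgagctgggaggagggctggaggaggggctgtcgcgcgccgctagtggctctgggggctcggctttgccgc
Pdgfra: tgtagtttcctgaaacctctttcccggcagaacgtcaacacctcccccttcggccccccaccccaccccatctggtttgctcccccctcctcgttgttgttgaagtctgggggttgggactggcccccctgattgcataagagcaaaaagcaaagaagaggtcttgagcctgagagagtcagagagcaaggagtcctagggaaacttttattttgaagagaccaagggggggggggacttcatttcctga
The Kit stretch held 70.8% G and C, 17 CpG dinucleotides and 1 GC box. The Pdgfra stretch held 54.4%, 4 CpG and 0 GC boxes, against medians of 52.4% and 6 CpG over 32851 promoters of the same length. Entries on some chromosomes were left out of this reading, and none was used for Pdgfrb, Fgfr1 or Erbb3. That left 7 of the 10 genes, a selection and not only a gap in RefSeq. A GC box was in 5 of these (Kit, Fgfr4, Egfr, Met and Axl) and in 32.7% of all promoters. The CCAAT box (CCAAT), the TATA box (TATAAA) and the octamer core (TTTGCAT), none of which overlapped a GC box here, were in 0 of the 7, and in 33.8%, 12.4% and 4.12% of all promoters. A match is a run of letters in this window and not a measured binding site.

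A first comparison, of the KSR lines with the average of both MEF arrays, asks which receptor genes differ between fibroblasts and the cells made from them. Of the 10 genes 7 fell in the iPS lines (Pdgfra, Pdgfrb, Fgfr1, Fgfr2, Egfr, Met and Axl) and 1, Erbb3, rose. Kit was higher on every iPS array than on either MEF array but did not pass the test, and Fgfr4 overlapped. In limma, at an adjusted p of 0.05 over all genes, 7 members were lower, against 14.3% of all genes, and 1 was higher, against 12.1% of all genes; in either direction 26.4% of all genes passed, and 39% had an unadjusted p under 0.05, as did 9 members. The members' median difference was -2.22, with 0.00 over all genes. Because the members were chosen with earlier results of these data known, these figures do not speak for receptor genes as a class. The largest falls were those of Pdgfra, Pdgfrb and Axl.

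**Figure D1:**
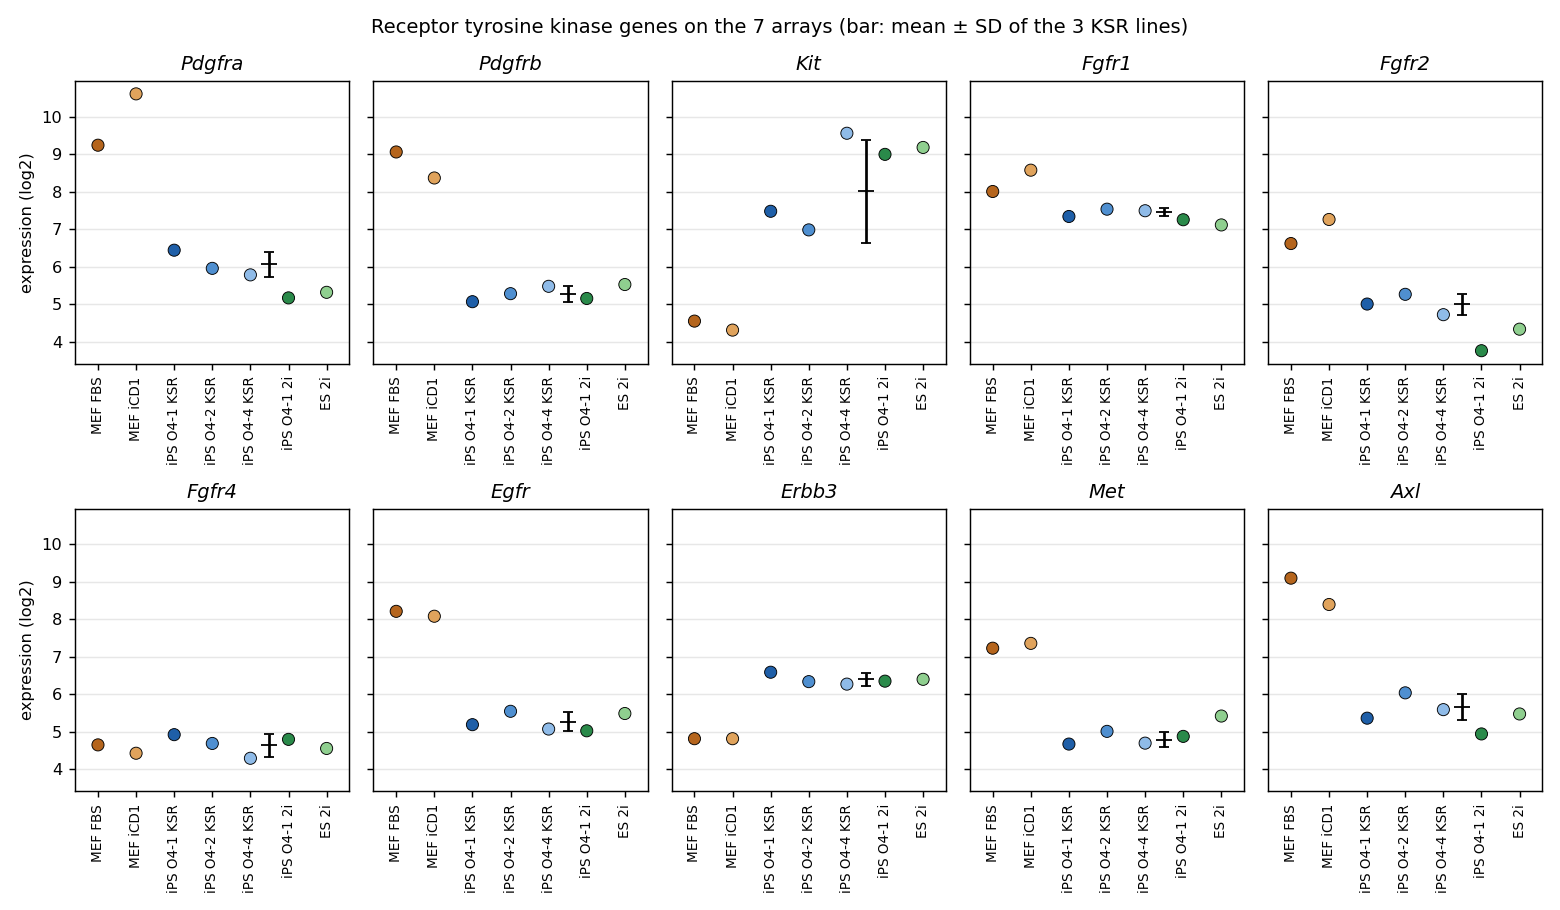
Log2 expression of the 10 receptor genes on each of the 7 arrays, 1 panel a gene, with points coloured by culture and a bar for the mean ± SD of the 3 KSR lines. Both MEF arrays lie above all 5 pluripotent arrays for 7 genes and below them for Kit and Erbb3, while Fgfr4 overlaps. Levels are to be read within a panel only.

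Pdgfra, a receptor for several PDGF chains, measured 9.24 in FBS and 10.61 in iCD1 among the MEF arrays. Line O4-1 had 6.44, line O4-2 had 5.96 and line O4-4 had 5.78, with 5.17 for iPS cells in 2i and 5.32 for ES cells. Both MEF arrays lay at least 2.80 above every pluripotent array. Pdgfra fell by 3.87 ± 0.24 in the KSR lines (SE, with 3 lines and 2 MEF arrays compared; adjusted p = 0.00777 in limma), a 14.6-fold difference.

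Pdgfrb, which binds PDGF-B and PDGF-D and marks fibroblasts and pericytes, measured 9.06 in FBS and 8.37 in iCD1. Its values were 5.07, 5.28 and 5.48 in the KSR lines and 5.15 and 5.52 in iPS and ES cells in 2i. The groups did not overlap, and the pluripotent arrays kept within 0.46 of each other. It fell by 3.44 ± 0.16 (SE; limma, adjusted p = 0.00659), a 10.8-fold difference.

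Kit lay the other way, with 4.55 in FBS and 4.31 in iCD1. Line O4-1 had 7.48, O4-2 had 6.98 and O4-4 had 9.56, while iPS cells in 2i had 8.997 and ES cells 9.18. Every pluripotent array lay at least 2.43 above both MEF arrays. The difference of the KSR lines from MEFs was 3.58 ± 0.93 (SE; limma, adjusted p = 0.0716) and did not pass. Without line O4-4 the difference was smaller, at 2.80 ± 0.24, and passed (SE; limma, adjusted p = 0.0438). Kit also passed with array medians subtracted (limma, adjusted p = 0.0155), after quantile normalization (0.0308), among genes at or above the median level (0.0178) and with both MEF arrays as 1 group (0.0208). Over all 13 settings the adjusted p ran from 0.0155 to 0.213 in limma. Kit is also carried by mast cells. The 6 mast cell markers had a mean of 3.07 and 3.02 in MEFs and of 2.95 to 3.22 on the pluripotent arrays, and 0 of the 6 reached the median of the array on any of them.

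The genes that flank this pair in the RefSeq order differed less. Kdr, the VEGF receptor gene next to Kit, was at 5.12 and 4.63 in MEFs and at 3.80, 3.57 and 3.99 in the KSR lines, and it fell by 1.09 ± 0.16 (SE; limma, adjusted p = 0.0220). On the far side of Pdgfra, Gsx2, a homeobox gene of the developing forebrain, was at 0.06 ± 0.09 (SE; limma, adjusted p = 0.674), and Chic2 at -0.06 ± 0.09 (SE; limma, adjusted p = 0.693). Beyond Kdr, Srd5a3 was at -0.61 ± 0.24 (SE; limma, adjusted p = 0.169). Lnx1 (0.12 ± 0.20; limma, adjusted p = 0.740) and Tmem165 (-0.16 ± 0.09; limma, adjusted p = 0.317) did not pass either.

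**Figure D2:**
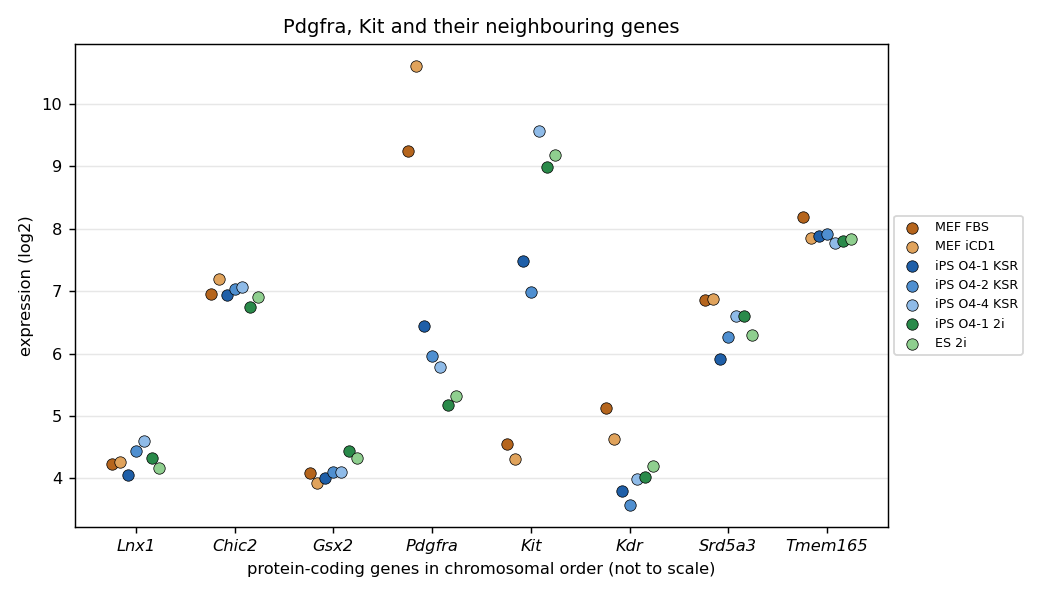
Log2 expression of Pdgfra, Kit and 6 flanking protein-coding genes in their chromosomal order (spacing not to scale) on the 7 arrays. Pdgfra is high on both MEF arrays, Kit on the 5 pluripotent arrays, and the flanking genes differ by at most 1.09 between the KSR mean and the MEF mean.

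The FGF receptors did not move as a block. Fgfr1, the broadly expressed FGF receptor of mesenchyme and of ES cells, measured 8.01 in FBS and 8.58 in iCD1, and was at 7.34, 7.53 and 7.49 in the KSR lines. In 2i it was at 7.25 in iPS cells and 7.11 in ES cells. It fell by 0.84 ± 0.11 (SE; limma, adjusted p = 0.0166), the smallest fall among the 7 genes, and both MEF arrays stayed above all pluripotent arrays. Against the FBS array alone its difference was -0.55 ± 0.13 and did not pass (SE; limma, adjusted p = 0.0815).

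Fgfr2, whose isoforms bind different FGFs, was at 6.62 and 7.26 in MEFs and at 5.00, 5.26 and 4.72 in the KSR lines in the order O4-1, O4-2, O4-4. It was at 3.76 and 4.33 in iPS and ES cells in 2i, the lowest of the 7 arrays. Fgfr2 fell by 1.94 ± 0.20 (SE; limma, adjusted p = 0.0120). The probe set does not tell the isoforms apart. Fgfr4, an FGF receptor known from liver and endoderm, was at 4.65 and 4.43 in MEFs and at 4.93, 4.69 and 4.30 in the KSR lines, and the groups overlapped. Its difference was 0.10 ± 0.23 (SE; limma, adjusted p = 0.813), and all 7 values lay under the array medians.

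The EGF family receptors moved apart. Egfr was at 8.22 and 8.08 in MEFs and at 5.19, 5.55 and 5.08 in the KSR lines. In 2i it was at 5.03 in iPS cells and 5.49 in ES cells, so that the MEF arrays stood at least 2.54 above all others. It fell by 2.88 ± 0.19 (SE; limma, adjusted p = 0.00780), or 7.35-fold. Erbb3, which binds neuregulins and signals through a partner receptor because its own kinase is weak, was at 4.82 on both MEF arrays and at 6.59, 6.34 and 6.27 in the KSR lines. In 2i it was at 6.35 in iPS cells and 6.40 in ES cells. It rose by 1.58 ± 0.14 (SE; limma, adjusted p = 0.00969), with no overlap between the groups.

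Met and Axl, receptors linked to cell movement in mesenchymal cells, fell as well. Met was at 7.23 and 7.36 in MEFs, at 4.67, 5.01 and 4.70 in the KSR lines, and at 4.88 and 5.42 in iPS and ES cells in 2i. Its fall was 5.66-fold, by 2.50 ± 0.15 (SE; limma, adjusted p = 0.00756). Axl was at 9.10 in FBS and 8.40 in iCD1, at 5.37, 6.04 and 5.59 in the KSR lines, and at 4.94 and 5.48 in 2i. It fell by 3.08 ± 0.25 (SE; limma, adjusted p = 0.00889), or 8.47-fold. In both genes every pluripotent array lay under both MEF arrays.

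Over all genes, both MEF arrays lay above all 5 pluripotent arrays in 22% of cases and below them in 21.9%, against 7 and 2 of the 10 receptor genes. The fit takes its error from the 3 KSR lines, and with 1 line fewer it had little left: without O4-1 or without O4-2 limma called 0 of the 10 members and 0 of all genes, with 8 and 9 members at an unadjusted p under 0.05, and without O4-4 it called 8 members, Kit in place of Fgfr1. In bulk RNA, fewer cells of a type and less RNA per cell cannot be told apart. Of the 10 fibroblast markers 7 fell with the receptors, against 14.3% of all genes. The count was 8 without line O4-4, smaller without the iCD1 array and larger without the FBS array. The part of fibroblasts in the falls of the receptors was not tested.

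Both 2i cultures, iPS and ES cells, were set against the same MEF arrays, which the comparison above also used. Limma again called 7 members lower, with 12.5% of all genes, and 1 higher, with 9.75% of all genes. Both directions made 22.2% of all genes, and 37.4% had an unadjusted p under 0.05, as did 9 members. Pdgfra fell by 4.68 ± 0.27 (SE; limma, adjusted p = 0.00889), 25.7-fold, and Fgfr2 fell by 2.89 ± 0.22 (SE; limma, adjusted p = 0.0110). Erbb3 rose by 1.56 ± 0.15 (SE; limma, adjusted p = 0.0141). Kit was 4.66 ± 1.02 higher (SE; limma, adjusted p = 0.0551), a 25.3-fold difference that did not pass, with an error that comes from the KSR lines although no KSR line enters the difference. Without line O4-4 Kit passed (limma, adjusted p = 0.0423) and Fgfr1 did not (limma, adjusted p = 0.0508). Pdgfrb, Axl, Egfr, Met and Fgfr1 fell, with differences of -3.38 ± 0.18, -3.54 ± 0.27, -2.89 ± 0.20, -2.15 ± 0.17 and -1.11 ± 0.12 (SE; limma, adjusted p from 0.00852 to 0.0154). Without O4-1 or without O4-2 the same differences gave 0 calls in limma, with lowest adjusted p of 0.0827 and 0.0536 over all genes.

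**Figure D3:**
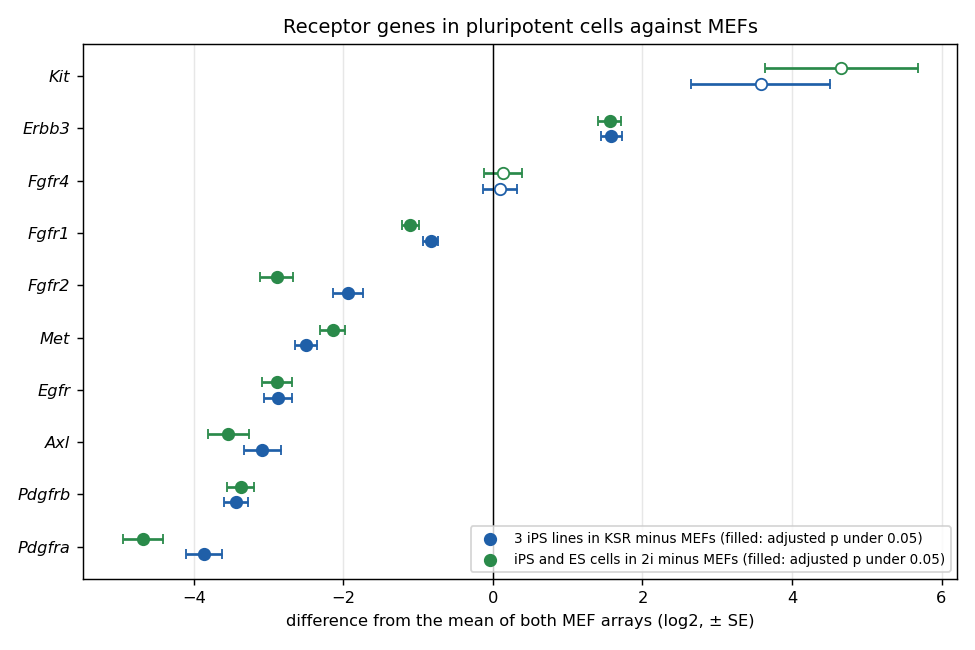
Difference of the KSR lines (blue) and of the 2i cultures (green) from the mean of both MEF arrays for each receptor gene, in log2 with SE, filled where limma's adjusted p was under 0.05. The 7 genes that fell lie below 0 and Erbb3 above it in both comparisons, which share the MEF arrays, and Kit has the largest positive difference and the widest error.

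The 5 pluripotent cultures were then compared with each other. Kit varied most. Its values in lines O4-1, O4-2 and O4-4 spanned 2.58, or 5.97-fold, and a span as wide was found in 15 of 19938 genes, Kit included, or 0.0752% of all genes. Kit was the 1 member whose KSR lines differed 2-fold or more, as 3.6% of all genes did. The other 9 members spanned under 1, the widest being Axl at 0.68, which 10.6% of all genes reached. The median span was 0.51 over the members and 0.30 over all genes. Line O4-4 lay 2.08 above O4-1, where 0.777% of all genes were 2-fold higher, and 2.58 above O4-2, where 1.44% were. Kit in iPS cells in 2i minus O4-4 was -0.56, and in ES cells minus O4-4 it was -0.38. Kit was thus high in O4-4 and both 2i cultures and lower in the other KSR lines, which lay -0.50 apart (O4-2 minus O4-1).

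The gene whose pattern was most like that of Kit, by the root mean square difference of centred values over 7 arrays, was Tfcp2l1, a transcription factor gene of the naive state, at 0.25. It was at 4.56 and 4.33 in MEFs, at 7.37, 6.70 and 9.68 in the KSR lines (O4-1, O4-2, O4-4), and at 9.10 and 9.79 in 2i. For the other members the closest genes were the matrix protein gene Tgfbi for Pdgfra (0.36), Phldb2 for Pdgfrb (0.13), the transcription factor gene Sox4 for Fgfr2 (0.19), Epb41l3 for Egfr (0.13), the necroptosis kinase gene Ripk3 for Met (0.11) and the annexin gene Anxa2 for Axl (0.13). Those of Fgfr1, Erbb3 and Fgfr4, the members with the smallest differences between KSR lines and MEFs, were Zc4h2 (0.066), the mitochondrial ribosomal protein gene Mrps5 (0.057) and Josd1 (0.056). Between members the smallest such difference was 0.29, between Pdgfrb and Axl and between Egfr and Met. These are descriptions over 7 arrays that fall into MEFs and pluripotent cells.

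**Figure D4:**
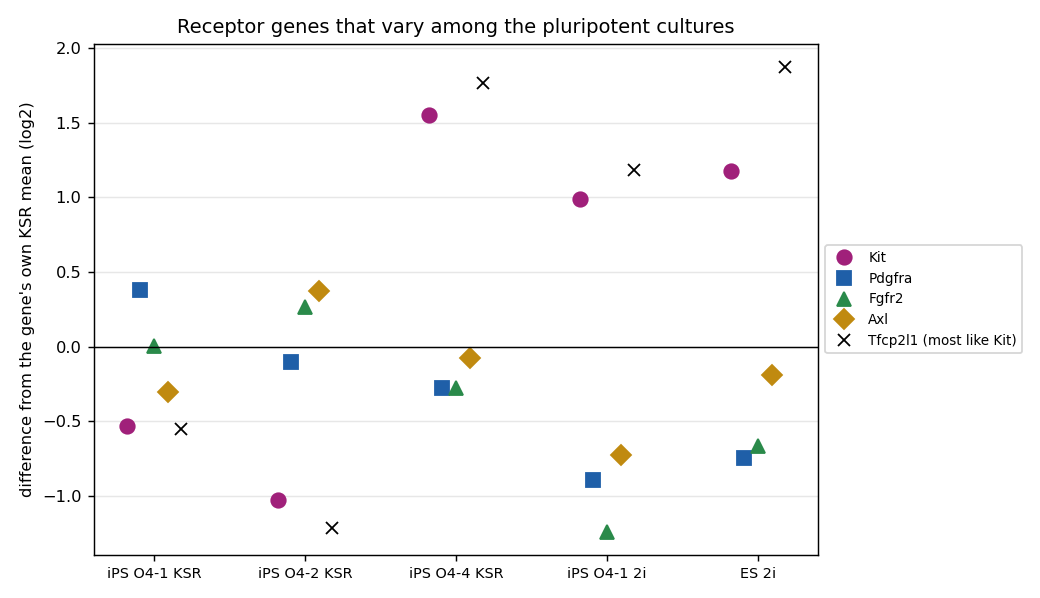
Difference of each gene from its own KSR mean (log2) on the 5 pluripotent arrays for Kit, Pdgfra, Fgfr2 and Axl, with Tfcp2l1, the gene most like Kit. Kit and Tfcp2l1 lie below 0 in lines O4-1 and O4-2 and above it in O4-4, iPS cells in 2i and ES cells, while Pdgfra and Fgfr2 are lowest in 2i.

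The 2i cultures were compared with the KSR lines to ask whether receptor genes differ between the media, 1 array against 3 lines. For the ES cells, cell origin and medium change together and cannot be told apart. Limma called 0 members and 0 genes for iPS cells in 2i, where 6.72% of all genes had an unadjusted p under 0.05, and 0 members and 0 genes for ES cells, where 8.76% did. At that level stood 1 member in each comparison, Fgfr2 for iPS cells and Met for ES cells. Relative to the KSR mean Fgfr2 was at -1.24 ± 0.25 in iPS cells in 2i (SE, 95% interval of the difference from -1.97 to -0.50; limma, adjusted p = 0.727) and at -0.66 ± 0.25 in ES cells (-1.40 to 0.07; adjusted p = 0.585). Pdgfra was at -0.89 ± 0.31 in iPS cells in 2i (-1.79 to 0.005; limma, adjusted p = 0.727) and at -0.74 ± 0.31 in ES cells (-1.64 to 0.15; adjusted p = 0.606). Met was 0.63 ± 0.19 above it in ES cells (0.07 to 1.18; limma, adjusted p = 0.571) and 0.08 ± 0.19 above it in iPS cells. For Kit the interval was too wide to tell, from -2.42 to 4.40 in iPS cells and from -2.24 to 4.59 in ES cells. With all 3 lines Kit's difference was 0.99 ± 1.18 in iPS cells in 2i and 1.17 ± 1.18 in ES cells (SE). Without line O4-4 these were 1.77 ± 0.30 and 1.95 ± 0.30. They were 0.73 ± 1.49 and 0.91 ± 1.49 without O4-1, and 0.48 ± 1.19 and 0.66 ± 1.19 without O4-2. None of them passed the adjusted threshold. O4-4 had the highest Kit, so leaving it out narrows the spread between lines that sets the error.

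Both 2i arrays lay below all 3 KSR lines in 3 of the 10 receptor genes, Pdgfra, Fgfr1 and Fgfr2, against 13.1% of all genes, and above them in 0, against 12.9%. Line O4-1, grown in both media, showed 2-fold differences in 3 members. Kit was 1.52 higher in 2i, where 0.481% of all genes were 2-fold higher, and Pdgfra was at -1.27 and Fgfr2 at -1.25, where 0.953% of all genes were 2-fold lower. Each is 1 array against 1, with no test. ES and iPS cells in 2i differed by 2-fold in 0 of the 10 members (0.978% of all genes), the widest difference being that of Fgfr2, 0.57 higher in ES cells.

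The order of Pdgfra over the pluripotent arrays, O4-1 first, then O4-2, O4-4, ES and iPS cells in 2i, was set against markers, since Pdgfra also marks primitive endoderm. The mean of 10 extraembryonic endoderm markers was 5.55, 5.15 and 4.99 in the KSR lines (O4-1, O4-2, O4-4) and 4.97 and 4.90 in ES and iPS cells in 2i. In MEFs it was 5.53 in FBS and 5.35 in iCD1, so that O4-1 was near the level of fibroblasts. Of these 10 markers 1, Dab2, had the order of Pdgfra over all 5 arrays, and 6 had it over the KSR lines (Gata6, Sox17, Sox7, Dab2, Cubn and Hnf4a). The share of all genes with either order was not counted, so these counts do not speak for the markers as a set. The widest differences were in a pair of genes: the endocytic receptor gene Cubn was at 6.69, 4.87 and 4.31 in the KSR lines and at 3.63 and 3.86 in ES and iPS cells in 2i, and its adaptor gene Dab2 was at 6.49, 6.01 and 5.35 and at 4.85 and 4.72. Gata4, a defining factor of that lineage, did not follow the order, with 5.74, 5.13 and 5.35 in the KSR lines, 5.57 and 5.50 in ES and iPS cells in 2i, and 5.65 and 5.09 in MEFs. Hnf4a was highest in iPS cells in 2i, at 5.35, and Afp (3.43 to 3.77) and Foxa2 (5.69 to 6.01) varied little over the 5 arrays. The part of such cells in the Pdgfra values was not tested. The mean of the 10 fibroblast markers was 6.40, 6.33 and 7.06 in the KSR lines and 6.67 and 5.87 in ES and iPS cells in 2i. The markers were divided: O4-4 was the highest KSR line in 8 of them, collagen genes among them, and the lowest in 2, Thy1 and Twist2. How often O4-4 was the highest or lowest line over all genes was not counted. Thy1 had the order of Pdgfra over all 5 arrays, at 6.17, 5.96 and 5.70 in the KSR lines and 5.19 and 4.72 in ES and iPS cells in 2i. The part of fibroblasts in these values was not tested either.

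The MEF arrays differed by 2-fold in 1 member. Pdgfra was 1.37 higher in iCD1 than in FBS, where 1.7% of all genes were 2-fold higher. Pdgfrb (-0.69) and Axl (-0.70) were lower in iCD1 and Fgfr1 (0.57) and Fgfr2 (0.64) higher, while Kit (-0.24), Fgfr4 (-0.22), Egfr (-0.13) and Met (0.13) differed less. With FBS as the reference the KSR lines' difference in Pdgfra was -3.18 ± 0.31, and with iCD1 it was -4.55 ± 0.31. Of the 10 fibroblast markers 6 were higher in iCD1 than in FBS, 4 of them by 2-fold or more (Lum 3.87, Dcn 2.83, Fap 1.87 and Col3a1 1.36), and 4 were lower (Thy1 -0.65, Prrx1 -0.25, Col1a1 -0.16 and Col1a2 -0.01). Their part in the Pdgfra difference was not tested.

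Of 46 other receptor tyrosine kinase genes, 14 fell and 2 rose in the KSR lines against MEFs in limma, with a median difference of -0.27 and 0.00 over all genes. Over all genes 14.3% fell and 12.1% rose. The collagen receptor gene Ddr2 (-3.28 ± 0.44) and the ephrin receptor gene Epha3 (-2.88 ± 0.09) had the largest falls. The insulin family receptor genes Igf1r (-1.64 ± 0.13) and Insr (-1.45 ± 0.17) fell, as did the Wnt receptor genes Ryk (-1.32 ± 0.12) and Ror2 (-1.21 ± 0.18). Erbb2, a main signalling partner of Erbb3, fell as well (-1.15 ± 0.17). The others that fell were Styk1, Kdr, Flt1, Flt4, Csf1r, Ephb6 and Epha5. Tek, the angiopoietin receptor gene known from endothelium, rose by 1.40 ± 0.18 (SE; limma, adjusted p = 0.0166), and Lmtk2 rose by 1.19 ± 0.11 (SE; limma, adjusted p = 0.00993). The mean of 6 endothelial markers, Tek and Kdr among them, was 4.16 and 4.15 in MEFs and 4.56 to 4.83 elsewhere. These markers were divided: in the KSR lines against MEFs limma called 2 higher and 2 lower, with a median difference of -0.20. Epha4 was at 6.77, 6.31 and 8.14 in the KSR lines (O4-1, O4-2, O4-4) and at 7.66 and 8.03 in iPS and ES cells in 2i. Epha1 was instead higher in O4-1 and O4-2, with 5.86, 6.22 and 4.46 in the KSR lines and 4.49 and 4.08 in 2i. Mertk, a TAM receptor like Axl, was at 5.95 and 6.78 in MEFs and at 4.88, 5.14 and 3.84 in the KSR lines, and Epha2 was at 8.49, 8.70 and 7.52 in these lines. Ddr2 was highest in O4-4 among them, at 5.86, 5.95 and 7.01. Without line O4-4 limma called 9 of these 46 lower and 2 higher, beside 1569 lower and 1207 higher of all 19938 genes. Fewer of the 46 were called lower without the FBS array as well.

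The ligands of these receptors were read from a list of 31 measured genes, of which 11 fell and 3 rose, with a median of -0.03. This stands beside 14.3% lower and 12.1% higher over all genes. The gene for stem cell factor, Kitl, the ligand of Kit, was at 5.43 and 6.37 in MEFs and at 4.12, 4.05 and 3.95 in the KSR lines, and it fell by 1.86 ± 0.10 (SE; limma, adjusted p = 0.00702). Receptor and ligand thus stood on opposite sides, Kit higher and Kitl lower in the pluripotent cells. For Met and Axl the ligand genes went the same way as the receptor: Hgf (-1.94 ± 0.08) fell, and so did the TAM receptor ligand genes Gas6 (-1.77 ± 0.14) and Pros1 (-2.33 ± 0.10). Of the PDGF genes, Pdgfc (-2.62 ± 0.45) and Pdgfd (-1.31 ± 0.18) fell, while Pdgfa was at 0.18 ± 0.23 (SE; limma, adjusted p = 0.643) and Pdgfb at 0.15 ± 0.18 (adjusted p = 0.608).

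Among EGF family ligands Ereg (-2.04 ± 0.20), Nrg1 (-1.44 ± 0.16) and Hbegf (-0.99 ± 0.13) fell, and Nrg4, a ligand of Erbb4, rose by 1.36 ± 0.19 (SE; limma, adjusted p = 0.0202). Of the FGF genes Fgf4, the ligand made by pluripotent cells, was at 5.44 and 5.32 in MEFs and at 8.21, 7.95 and 8.36 in the KSR lines. It rose by 2.79 ± 0.16 (SE; limma, adjusted p = 0.00756), and Fgf17 rose by 1.21 ± 0.10. Fgf2 (-0.84 ± 0.13) fell, and so did Fgf7, a mesenchymal ligand of an Fgfr2 isoform (-2.44 ± 0.19), with 9.35 in FBS but 5.71 in iCD1. Fgf5, Fgf8 and Fgf15 did not pass and varied between the KSR lines. In the order O4-1, O4-2, O4-4, Fgf5 was at 5.63, 6.22 and 4.44 and Fgf15 at 6.51, 7.30 and 5.44, and Fgf8 was at 5.74, 6.30 and 5.24. In all 3 genes O4-4 was the lowest KSR line, the line with the highest Kit. Pdgfc, whose KSR lines also differed more than 2-fold, went the other way, with 5.93, 6.03 and 7.12 in the same order. Without line O4-4 limma called 7 of the 31 lower and 2 higher, beside 1569 lower and 1207 higher of all 19938 genes. Fewer of the 31 were called lower without the FBS array as well.

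Of 37 adaptor, co-receptor and inhibitor genes 13 fell and 1 rose, with a median of -0.73. The shares over all genes were 14.3% lower and 12.1% higher. The 1 that rose was Gab1, the docking protein of Met and EGF receptor signalling, from 6.56 and 7.19 in MEFs to 8.55, 8.63 and 8.84 in the KSR lines, by 1.80 ± 0.13 (SE; limma, adjusted p = 0.00826). The PI3-kinase subunit genes Pik3r1 (-2.57 ± 0.28) and Pik3ca (-0.92 ± 0.13) and the phosphatase gene Ptpn11 (-0.78 ± 0.10) fell. Heparan sulphate proteoglycan genes, whose products help FGF bind its receptor, fell in 5 of 6 cases, Sdc2 (-2.51 ± 0.29), Sdc1 (-1.47 ± 0.18), Gpc3 (-1.42 ± 0.23), Gpc4 (-1.34 ± 0.16) and Gpc1 (-1.25 ± 0.16). The decoy receptor gene Fgfrl1 (-0.98 ± 0.19) fell too. Of 17 feedback inhibitor and ubiquitin ligase genes, which restrain the receptors, 4 fell and the other 13 did not pass in limma. Those that fell were Lrig3 (-1.46 ± 0.15), the ubiquitin ligase gene Cblb (-1.43 ± 0.13), the EGF receptor inhibitor gene Errfi1 (-1.20 ± 0.23) and Spred3 (-0.90 ± 0.16). Grb2, the adaptor shared by these receptors, was at 0.20 ± 0.13 (SE; limma, adjusted p = 0.354). Of 9 Spry, Spred, Dusp and Il17rd genes, inhibitors of the ERK route, 3 differed 2-fold or more between the KSR lines, as 3.6% of all genes did. These 3 did not pass against MEFs. The KSR span of the other 6 was between 0.32 and 0.80. In the order O4-1, O4-2, O4-4, Dusp6 was at 7.83, 8.17 and 5.75, Dusp4 at 5.17, 5.66 and 3.86 and Spry4 at 5.28, 6.01 and 4.50, each lowest in O4-4. The adjusted p of the genes that rose or fell in the last 4 paragraphs ran up to 0.0473 in limma, that of Epha5. Without line O4-4 limma called 6 of the 37 lower and 1 higher, beside 1569 lower and 1207 higher of all 19938 genes. Fewer of the 37 were called lower without either MEF array as well. Without O4-1 or without O4-2 limma called 0 genes of any of these 3 lists.

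**Figure D5:**
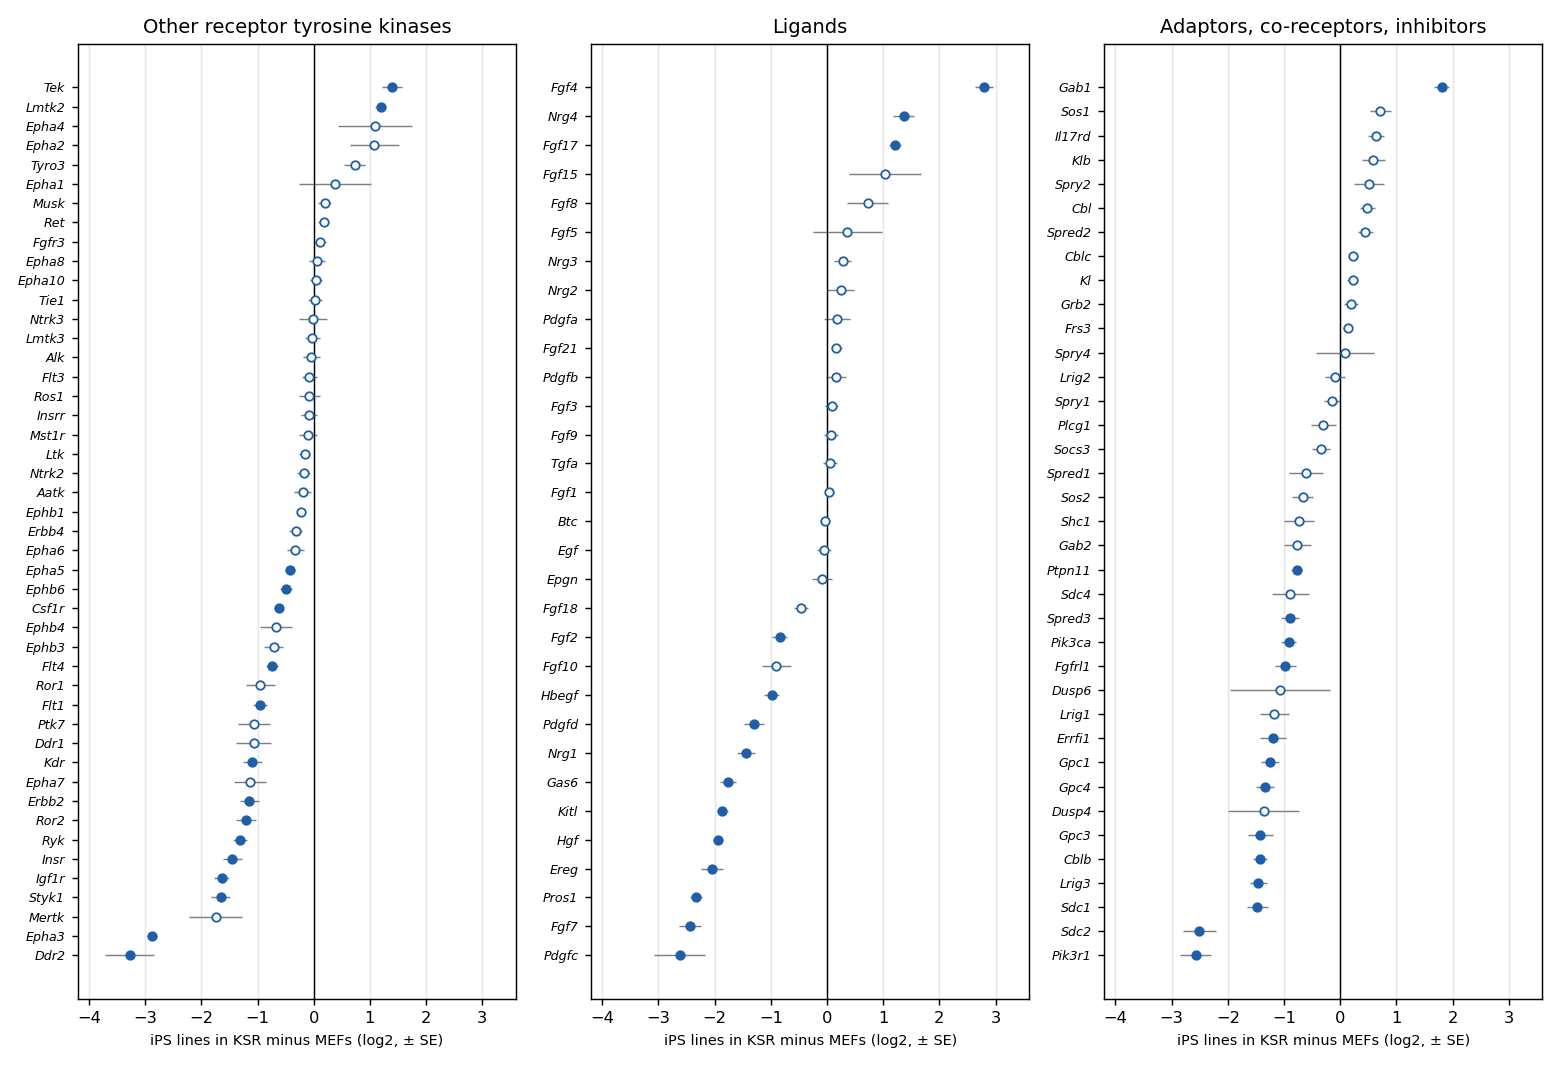
Difference of the KSR lines from the mean of both MEF arrays in log2 with SE for 46 other receptor tyrosine kinases, 31 ligands and 37 adaptors, co-receptors and inhibitors, filled where limma's adjusted p was under 0.05. Ddr2, Pdgfc and Pik3r1 have the largest falls of their lists and Fgf4 and Gab1 stand out on the positive side.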

How the data were processed

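Messenger RNA of 7 cultures was hybridised to 7 Affymetrix arrays, from 100 ng of total RNA each, per the labels' protocols. The submitters' processing notes name RMA and Partek. The authors' table holds a log2 value for each probe set and was used as deposited. Versions were not given in the sources used here. Of 28853 probe sets 21789 had 1 gene symbol, and each of 19938 genes was read from its probe set of highest mean across the 7 arrays. Groups came from the titles. A single limma fit (version 3.58.1, R 4.3.3) held all 5 groups, with two-sided p-values adjusted by Benjamini-Hochberg across the genes and called at 0.05. Residual degrees of freedom, 2 in number, came from the KSR lines alone, and the prior added 1.62; the lone arrays were taken to vary as these lines do. In simulated data of the comparison of KSR lines with MEFs over 19938 genes the fit called 43 of 50 genes raised by 4, 29 of 50 raised by 2 and 8 of 50 raised by 1 on the log2 scale. Only the KSR arrays were shifted there, in 50 genes for each size, while the real comparison called 5260 genes. The adjustment is stricter where few genes differ, so these rates are not the power of the real test. Members and lists were chosen with earlier results of these data known. The members were named whatever their values. Genes of the other lists were named where they passed the threshold for KSR lines against MEFs, or where KSR lines differed 2-fold or 2i arrays lay 2-fold outside them. Pdgfa, Pdgfb, Grb2 and the markers named singly fall outside this rule and were chosen after their values were seen. The gene most like a member had the smallest root mean square difference, predicted genes left out. The lists of macrophage markers, of trophoblast markers and of melanocyte and Schwann cell markers together had, in that order, means on the pluripotent arrays of 3.99 to 4.44, 5.04 to 5.31 and 4.04 to 4.51, and in MEFs of 4.61 and 5.02, 4.67 and 4.29, and 4.18 and 4.27 in FBS and iCD1.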

Additional observations from a re-analysis of the deposited data

How the results depend on the processing

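The fit has 2 residual degrees of freedom, and 1 when a KSR line is left out. The arrays left out were those of the KSR lines and MEFs, and for 2i against MEFs also the 2i arrays. Leaving out each array in turn, limma called between 0 and 8 of the 10 members for KSR lines against MEFs and between 0 and 8 for 2i cultures against MEFs, and between 0 and 3947 and between 0 and 3366 of all genes, against 5260 and 4431 with all arrays. Without O4-1 or without O4-2 the count was 0 for both, with 5804 and 6924 genes at an unadjusted p under 0.05 for KSR lines against MEFs. Without O4-4 limma called 2776 and 2415 genes, without the iCD1 array 2968 and 2370, and without the iPS array in 2i 2559 for 2i against MEFs. Under the other settings (mean of probe sets, all probe sets, array medians subtracted, quantile normalization, genes at or above the median level, limma-trend, MEFs as 1 group) these counts stayed within 1.5 times, and Kit passed under the settings named with its values. For 2i against KSR, where only KSR lines were left out, limma called 0 genes under every setting. The sign turned only for differences near 0 that were never called. For KSR lines against MEFs Fgfr4 ran from -0.0482 to 0.27 when arrays were left out. For iPS cells in 2i against KSR, Fgfr4 ran from -0.0085 to 0.31 and Erbb3 from -0.11 to 0.0457, with 0.0026 after quantile normalization. For ES cells against KSR, Fgfr4 ran from -0.25 to 0.0645 and Erbb3 from -0.0641 to 0.0945. No paired analysis was possible because the groups share 1 line at most. With no signal over background given, low values such as those of Fgfr4 bound what can be read.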
